A study of Mus musculus with 12 samples.

Results

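A set of 282 transcripts was higher in the back skin of every mouse group that received the carcinogen DMBA than in untreated skin. They were chosen by their levels in the 12 deposited libraries, out of 85565 listed transcripts, of which 30678 passed a filter on low levels. Levels were expressed as CPM, the reads of a transcript scaled to a common library total. A transcript was a member when its lowest CPM in the 9 DMBA libraries lay above its highest CPM in the 3 untreated libraries and its mean in each DMBA group was at least 3 times the untreated mean. The filter asked for a mean of at least 0.5 CPM over all libraries and for reads in each group. Transcripts in which every Tcrb-/- library lay above every WT library were left out, since genotype alone could set their order. Of the transcripts that passed the filter, 1535 lay higher in all 9 DMBA libraries, which is 5.0% of them. The 3-fold condition left 360, and the condition on genotype removed 78. The members are 0.919% of the transcripts that passed the filter.

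DMBA is a polycyclic aromatic hydrocarbon that enters skin cells, binds the aryl hydrocarbon receptor and induces the cytochrome P450 enzymes that turn it into a form reacting with DNA. Repeated exposure of the skin sets off DNA damage signalling, epidermal thickening and the entry of immune cells. Tcrb encodes the β chain of the αβ T cell receptor, so Tcrb-/- mice have no αβ T cells, and regulatory T cells (Tregs) are the αβ T cells that restrain immune responses.

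PolyA RNA of whole back skin was sequenced from FVB mice, in 4 groups of 3 libraries. UT WT mice were wild type and untreated. WT DMBA mice were wild type and treated on the skin with DMBA, given in the labels as 200 ng weekly for 6 weeks. Tcrb-/- DMBA mice carried the deletion and had the same treatment. Tcrb-/- + Treg DMBA mice carried the deletion, received CD3+CD4+CD25+ cells sorted from WT spleen into the blood, and were then treated in the same way. The titles of the WT DMBA libraries name DMBA, while their treatment field reads as naive, and the titles were followed. Untreated Tcrb-/- skin was not analysed here, so for 6 of the 9 DMBA libraries the effect of DMBA cannot be told apart from that of the deletion. "Raised" therefore means higher than in UT WT skin. Whether the libraries of a group stem from different mice is not stated, so errors and p values cover the spread among libraries, which may be technical. Libraries held 17312566 to 31701620 estimated reads. The transcripts are listed by FVB/NJ identifiers that no table used here pairs with genes, so markers of cell types, the deleted gene and pathways could not be looked up. Transcripts are described by identifier or by length.

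The levels that chose the members are given first, as a description with no test. The median member had a mean of 0.568 CPM in UT WT skin, 5.77 CPM in WT DMBA, 6.88 CPM in Tcrb-/- DMBA and 6.09 CPM in Tcrb-/- + Treg DMBA skin. The median fold over UT WT was 7.82 in WT DMBA (interquartile range 4.26 to 16.3), 8.91 in Tcrb-/- DMBA (5.4 to 20.5) and 7.77 in Tcrb-/- + Treg DMBA (4.70 to 18.5). Most members lay past the 3-fold limit by a wide margin, and the medians of the 3 DMBA groups were similar. A fold of 5 or more in every DMBA group was reached by 171 members, a fold of 10 or more by 86 and a fold of 50 or more by 16. In whole skin, more RNA per cell and more cells of a type that holds the RNA cannot be told apart.

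Set per length (TPM), the members began among the scarce transcripts of skin and ended in the middle of the range. Their median level was 0.615 TPM in UT WT skin, 4.92 TPM in WT DMBA, 5.06 TPM in Tcrb-/- DMBA and 4.68 TPM in Tcrb-/- + Treg DMBA. The median percentile of a member among all transcripts past the filter was 13.8 in UT WT skin and 47.5, 50.5 and 51.2 in the 3 DMBA groups in the same order. A transcript scarce in UT WT skin could reach the mean of the filter through its DMBA libraries, and the rule asks for a rise. These percentiles are therefore partly set by the choice of members. A mean of 100 TPM or more was found for 5 members in UT WT skin, and for 31, 41 and 35 in the DMBA groups. Low starting levels also limit the folds. In 131 members at least 1 UT WT library had no read, in 57 there were 2 such libraries, and in 20 the UT WT libraries held 3 reads or fewer in all. Without those 20 the median folds were 7.14, 8.48 and 7.06.

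The separation between treated and untreated libraries differed widely between members. The ratio of the lowest DMBA library to the highest UT WT library had a median of 1.97 over the members. It was 2 or more in 137 members, 5 or more in 35 and 10 or more in 18. At the other end, the member closest to overlap had a ratio of 1.0012, and the nearest transcript outside, which had the folds but overlapped, had 0.996451. There were 338 transcripts with the folds and an overlap, and 1175 that did not overlap but fell short of the folds. The smallest group fold just inside was 3.00364 and the largest just outside 2.99864, so the edges of the set are not breaks in the data.

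**Figure D1:**
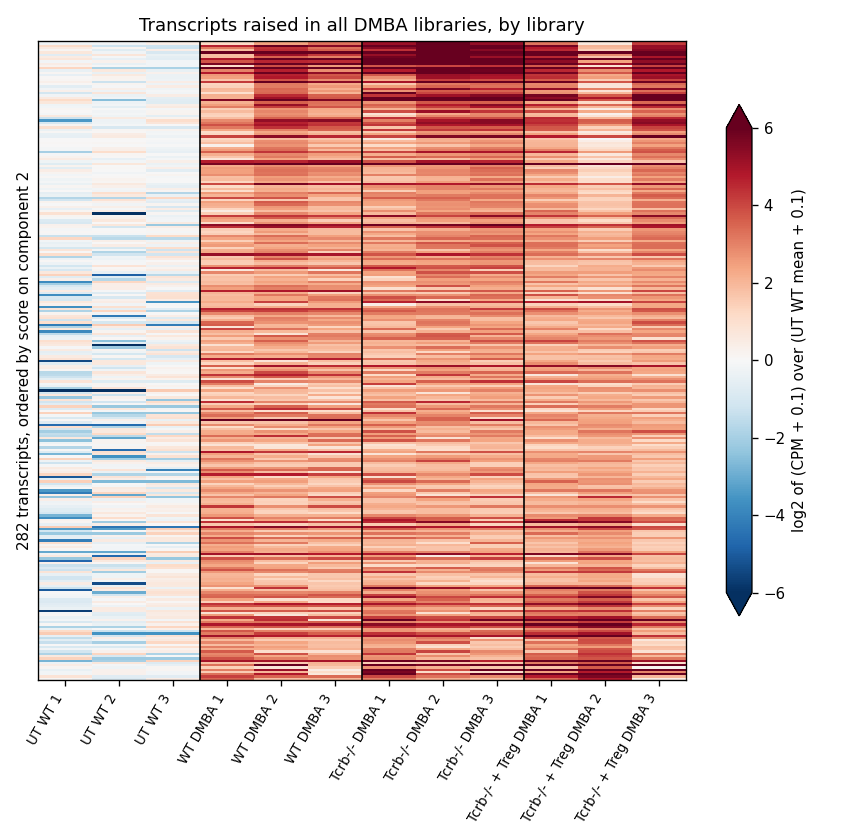
Level of each of the 282 transcripts (rows) in the 12 libraries (columns) as log2 of its CPM over the UT WT mean, with 0.1 CPM added to both. Rows are ordered by their score on the second component of the 9 DMBA libraries, and colours are limited at 6 on the log2 scale. The DMBA columns are red almost throughout, the upper rows are palest in Tcrb-/- + Treg replicate 2 and WT DMBA replicate 1, and the lowest rows are darkest in Tcrb-/- + Treg replicate 2.

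The transcript with the widest separation was MGP_FVBNJ_T0043995.1, a short transcript of 388 nt. In UT WT skin it had 0.784, 0.379 and 0.182 CPM (replicates 1 to 3), which rest on 17, 12 and 4 reads. It had 67.4, 617 and 255 CPM in WT DMBA, 559, 1098 and 889 CPM in Tcrb-/- DMBA, and 632, 69.8 and 801 CPM in Tcrb-/- + Treg DMBA skin. Its lowest DMBA library therefore stood 86.0 times above its highest untreated library. WT DMBA replicate 1 and Tcrb-/- + Treg replicate 2 were the low libraries in their groups, and the other 7 DMBA libraries lay well above both. The group means were 699, 1895 and 1118 times that of UT WT. Per length it was the second most abundant member, with 3.02 ± 2.01 TPM (SD, n = 3) in UT WT and 5818 ± 2385 TPM (SD, n = 3) in Tcrb-/- DMBA skin.

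MGP_FVBNJ_T0039576.1, of 1881 nt, had the next widest separation, with a ratio of 40.4. It had 0.0776, 0.379 and 0.136 CPM in UT WT, 15.3, 60.4 and 32.3 CPM in WT DMBA, 38.8, 75.7 and 67.5 CPM in Tcrb-/- DMBA, and 84.9, 30.5 and 67.3 CPM in Tcrb-/- + Treg DMBA. The treated groups overlapped one another, and the same pair of libraries, WT DMBA replicate 1 and Tcrb-/- + Treg replicate 2, was lowest. Its means were 36.0 ± 22.8, 60.7 ± 19.4 and 60.9 ± 27.8 CPM in the 3 DMBA groups (SD, n = 3 each), or 182, 307 and 309 times the UT WT mean of 0.197 CPM.

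**Figure D2:**
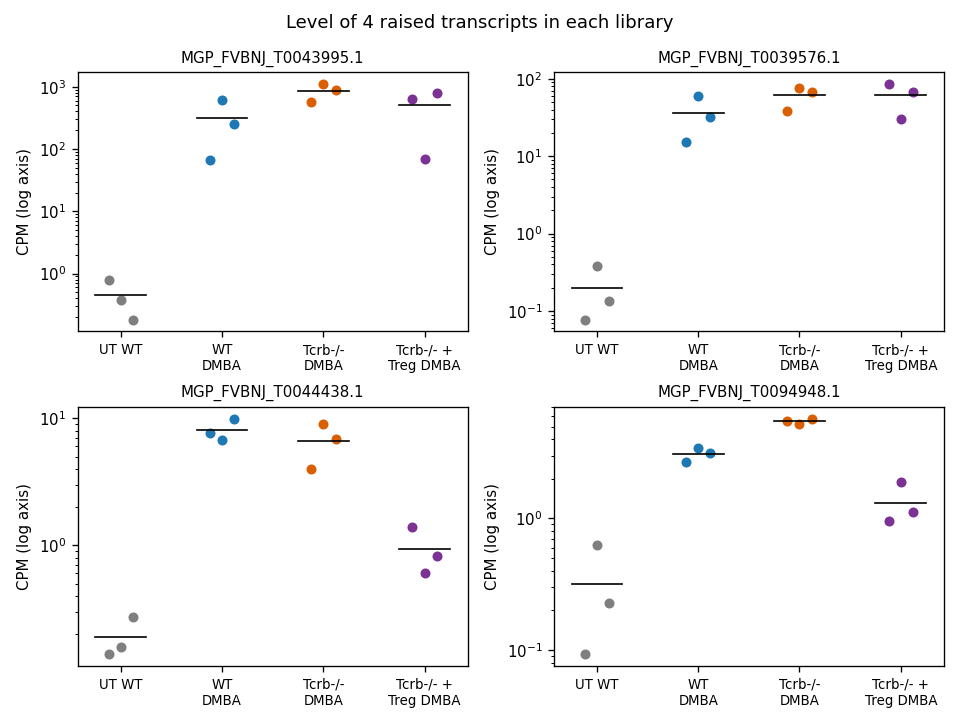
CPM of 4 named transcripts in each library on log axes, with points for replicates 1 to 3 from left to right and a line for the group mean. In the upper row the DMBA groups overlap, with low points in WT DMBA and Tcrb-/- + Treg DMBA, and in the lower row the 3 Tcrb-/- + Treg libraries lie between UT WT and the other DMBA libraries.

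The most abundant member, a transcript of 2445 nt, was already among the strong transcripts of untreated skin. It had 2183, 2316 and 1645 CPM in UT WT, 4982, 17558 and 9936 CPM in WT DMBA, 6373, 18018 and 21433 CPM in Tcrb-/- DMBA, and 15093, 3476 and 21534 CPM in Tcrb-/- + Treg DMBA. Its folds over UT WT were moderate, at 5.29, 7.46 and 6.53, and its lowest DMBA library was 1.5 times its highest UT WT library. Tcrb-/- + Treg replicate 2 was its lowest DMBA library and WT DMBA replicate 1 the next. This transcript made up 31.6% to 55.5% of the summed CPM of the members, so sums were also taken without it.

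Summed over all members, UT WT libraries had 3378 to 4172 CPM. The sums were 12789, 33954 and 20962 CPM in WT DMBA, 19524, 39126 and 40281 CPM in Tcrb-/- DMBA, and 29004, 11006 and 39285 CPM in Tcrb-/- + Treg DMBA. The 3 DMBA groups overlapped, and the lowest DMBA sum was that of Tcrb-/- + Treg replicate 2. Without the most abundant member the sums were 1803 ± 62.9 CPM in UT WT, 11743 ± 4340 in WT DMBA, 17702 ± 4100 in Tcrb-/- DMBA and 13064 ± 5163 in Tcrb-/- + Treg DMBA (SD, n = 3 each). In these sums the untreated libraries varied little and the treated libraries widely.

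**Figure D3:**
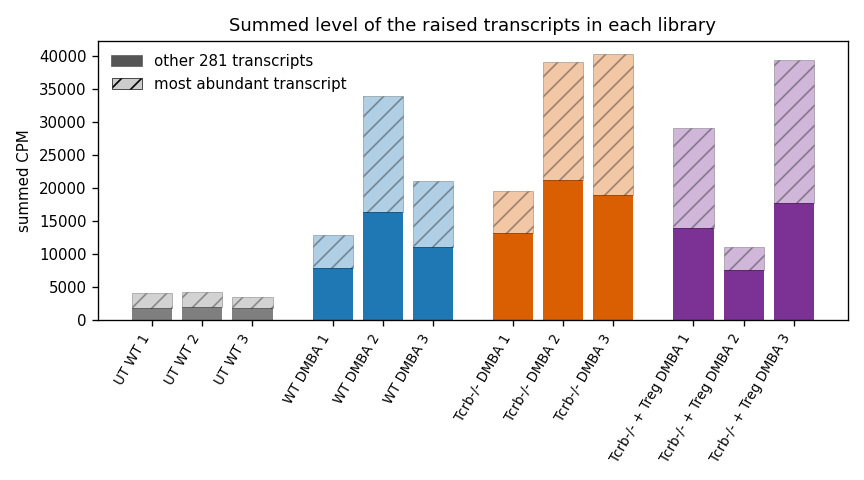
Summed CPM of the members in each library, with the most abundant member hatched and the other 281 solid. UT WT libraries reach at most 4172 CPM, and the 9 DMBA libraries range from 11006 to 40281 CPM, with low bars in each DMBA group.

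Across the 9 DMBA libraries both very even and very uneven transcripts made up a smaller share of the members than of all transcripts past the filter. The median ratio of the highest to the lowest of the 9 DMBA libraries was 3.98 for the members and 3.36 for all transcripts past the filter. It was under 2 in 19 members, which is 6.74% against 29.5% of all that passed, and under 10 in 241 members (85.5% against 72.3%). The rule chose the members on these same 9 libraries and left out transcripts with a low DMBA library. These shares are therefore partly set by the choice. Within the groups, the median coefficient of variation was 33.8% in WT DMBA, 33.8% in Tcrb-/- DMBA and 43.3% in Tcrb-/- + Treg DMBA, against 21.8%, 27.6% and 29.0% for all that passed. In UT WT it was 85.9% against 25.4%, at far lower levels.

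The steadiest member, of 4018 nt, had 3.04, 2.71 and 3.72 CPM in UT WT and between 8.67 and 11.9 CPM in every DMBA library. Its folds were 3.05, 3.10 and 3.36, close to the limit that chose it. The rise of this member was steady and moderate, unlike those of the 3 transcripts above, whose DMBA libraries spread more widely.

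Across the 9 DMBA libraries 2 components held most of the variance of the members, though the members did not move together as a set. The median Pearson's r over all pairs of members was 0.0334. A principal component analysis of the members' log2 CPM gave components with 37.5%, 34.0% and 8.48% of the variance. The first separated the 3 WT DMBA libraries from most Tcrb-/- libraries, with loadings of -0.54 to -0.19 in WT DMBA and 0.01 to 0.43 in the others. A few members weighed heavily on it. The run of 5 short members described below had scores of 3.36 to 9.31, the last being the highest of any member. The second set Tcrb-/- + Treg replicate 2 (0.70) and WT DMBA replicate 1 (0.37) against Tcrb-/- replicates 2 and 3 and Tcrb-/- + Treg replicate 3 (-0.39 to -0.28). The second component runs across the groups and not between them.

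Single libraries carried much of the second component. Tcrb-/- + Treg replicate 2 was the lowest DMBA library in 69 members (24.5%, against 10.6% of all transcripts past the filter) and the highest in 50 (17.7% against 14.7%). WT DMBA replicate 1 was the lowest in 59 members (20.9% against 10.1%). Compared with the median of the other 8 DMBA libraries, Tcrb-/- + Treg replicate 2 was more than 2-fold lower in 82 members (29.1% against 13.9%) and more than 2-fold higher in 35 (12.4% against 7.01%). Members were chosen on the values of these same libraries, so all these shares are partly set by the choice.

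**Figure D4:**
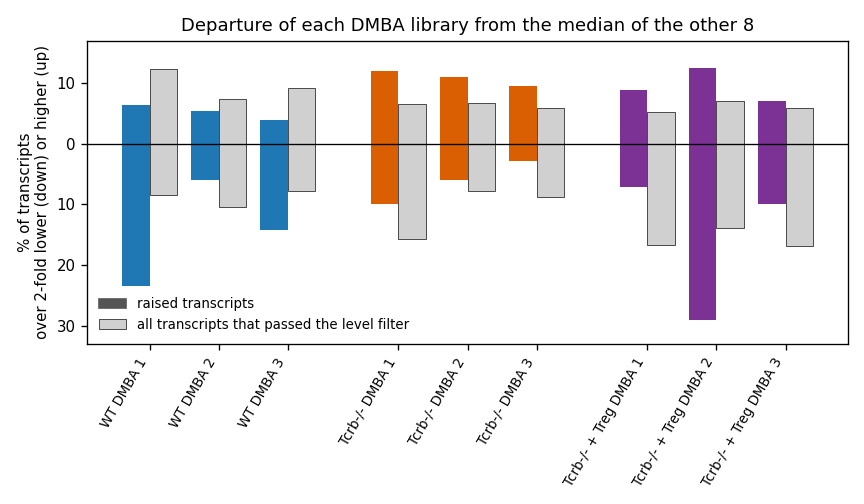
Share of transcripts that lay more than 2-fold above (up) or below (down) the median of the other 8 DMBA libraries, for the members (coloured) and for all transcripts past the filter (grey). The longest downward bars for members are 29.1% in Tcrb-/- + Treg replicate 2 and 23.4% in WT DMBA replicate 1. Members were chosen on the values of these libraries, which partly sets their shares.

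The 82 members that were low in Tcrb-/- + Treg replicate 2 formed a set with large folds, which the choice partly sets. Even the lowest DMBA library of a member had to lie above UT WT, so a member low in 1 library tends to be high in others. Of these 82 members, 67 were also below the median of the other DMBA libraries in WT DMBA replicate 1 and 52 in Tcrb-/- replicate 1, but 14 in Tcrb-/- + Treg replicate 3. In the same 3 libraries, 24, 5 and 28 of the 35 members high in Tcrb-/- + Treg replicate 2 were below it. Of the 165 members in neither set, 86, 78 and 87 were. A position below the median in WT DMBA replicate 1 was thus common in all 3 sets. Values below are for the 82 members. Their median log2 difference from that median was -1.79 in Tcrb-/- + Treg replicate 2, -0.98 in WT DMBA replicate 1, 0.62 in Tcrb-/- replicate 3 and 0.50 in Tcrb-/- + Treg replicate 3. Their median folds over UT WT were 14.4 in WT DMBA, 17.3 in Tcrb-/- DMBA and 10.7 in Tcrb-/- + Treg DMBA. Their median length was 1504 nt.

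The 35 members that were high in Tcrb-/- + Treg replicate 2 had a different profile, with median log2 differences of 1.53 in that library, 0.95 in Tcrb-/- + Treg replicate 1, 0.85 in Tcrb-/- replicate 1 and -0.58 in Tcrb-/- + Treg replicate 3. Their median folds were 12, 17 and 20.2 and their median length 2669 nt. The other 165 members had median folds of 5.41, 6.87 and 6.14 and a median length of 2171 nt. The sets were cut from the values themselves, so their folds are partly set by the cut, and they were not tested. The library that sets them apart is 1 of 3 in its group. Without it the rule found 287 members, which held 256 of the 282.

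The members were somewhat shorter than other transcripts. Their median length was 1919 nt, against 2301 nt for all transcripts past the filter, and 81 of them (28.7% against 22.3%) were under 1000 nt. Lengths ran from 375 to 10445 nt. The shortest member had means of 0.449 CPM in UT WT and 2.73, 3.96 and 3.45 CPM in the DMBA groups, and the longest had 1.23 CPM in UT WT and 13.3, 19.0 and 15.7 CPM. Of the members, 27 (9.57% against 5.15%) had whole-number read estimates in all libraries. The estimates of the others shared reads between transcripts, so part of a level can belong to a near-identical transcript.

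Members also tended to have neighbouring identifiers. Another member lay within 10 identifier numbers in 88 members (31.2%), and 5.78% of the other transcripts past the filter had a member that near. What the order of the identifiers stands for is not given in the sources used here, and near-identical copies in a run can share reads. There were 30 runs of 2 or more members and 9 runs of 3 or more. Among the 88 were 45 of the 82 members low in Tcrb-/- + Treg replicate 2 and 14 of the 35 members high in it.

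The largest run held 15 members of 485 to 925 nt. It spanned 31 transcripts past the filter, of which only the 15 members lay higher in all DMBA libraries. None of the 31 lay lower in all DMBA libraries, as did 2496 of all 30678 transcripts past the filter. Its summed level was 193 ± 15.0 CPM in UT WT, 1263 ± 422 in WT DMBA, 1840 ± 332 in Tcrb-/- DMBA and 1142 ± 762 in Tcrb-/- + Treg DMBA (SD, n = 3 each). In Tcrb-/- + Treg replicates 1 to 3 it summed to 1066, 420 and 1940 CPM, and 14 of its 15 members were in the set low in replicate 2.

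Some other short runs went the same way. A run of 6 members, of 479 to 1406 nt, had 37.6 ± 3.85 CPM in UT WT, 274 ± 134 in WT DMBA, 468 ± 189 in Tcrb-/- DMBA and 288 ± 196 in Tcrb-/- + Treg DMBA. A run of 4 members of 388 to 422 nt, which holds MGP_FVBNJ_T0043995.1, had 18.7 ± 3.11 CPM in UT WT, 864 ± 762 in WT DMBA, 1890 ± 686 in Tcrb-/- DMBA and 1144 ± 848 in Tcrb-/- + Treg DMBA (SD, n = 3 each in both runs). Every member of both runs was in the set low in Tcrb-/- + Treg replicate 2. Over the 9 DMBA libraries the members of the run of 4 had Pearson's r of 0.787 to 0.989 with one another, and the median over all pairs of members was 0.0334. Not every run was so even. The run of 15 had r of 0.127 to 0.994, and a run of 3 members of 1617 to 2299 nt had r of -0.177 to 0.210. These correlations share libraries and depth and are given as a description.

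A run of 5 members of 465 to 738 nt had another profile, and all 5 were in the set high in Tcrb-/- + Treg replicate 2. It summed to 0.0922, 0.189 and 0.0454 CPM in UT WT, which is 9 reads over the 3 libraries. The sums were 3.98, 19.6 and 0.844 CPM in WT DMBA, 781, 12.4 and 47.3 CPM in Tcrb-/- DMBA, and 363, 517 and 137 CPM in Tcrb-/- + Treg DMBA. All 3 Tcrb-/- + Treg libraries were far above the WT DMBA libraries, but Tcrb-/- replicate 2 lay below WT DMBA replicate 2. With so few untreated reads, its folds over UT WT have no firm size.

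The levels of the DMBA groups were then compared with one another, which the rule left partly free. WT DMBA had the lowest mean of the 3 DMBA groups in 147 members, Tcrb-/- DMBA in 45 and Tcrb-/- + Treg DMBA in 90. The highest mean was in WT DMBA in 62, in Tcrb-/- DMBA in 128 and in Tcrb-/- + Treg DMBA in 92. The largest and smallest group means differed by a median of 1.61 times. They were within 1.5 times in 116 members and apart by 3 times or more in 41.

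Treg transfer was the contrast that the rule touched least, since it treats both Tcrb-/- groups alike. No member was called in Tcrb-/- + Treg DMBA against Tcrb-/- DMBA skin by edgeR's quasi-likelihood test at an adjusted p under 0.01 and a fold above 2, among 54539 tested transcripts of which 0.0147% were called. At an unadjusted edgeR p under 0.05 there were 13 members (4.61%), 11 lower and 2 higher with Tregs, and the share over all tested was 6.97%. Here and in the contrasts below, all tested include transcripts too low for the level filter that the members passed. DESeq2 on the same counts called 3 members, all lower with Tregs, where it called 1.35% of all tested. The median log2 fold change was -0.05 for the members and 0.00 for all tested. Single members ranged from -2.71 to 1.44, with quartiles at -0.42 and 0.29.

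The median standard error of a member's log2 fold change was 0.77, so most 2-fold differences of single members could not have been told from the spread. A missing call does not show that the groups were alike. Levels in the 3 libraries did not overlap in 27 members that were lower with Tregs (9.57%, against 10.1% of transcripts past the filter) and in 4 that were higher (1.42% against 4.22%). The median log2 fold change was -0.43 over the 82 members low in Tcrb-/- + Treg replicate 2 and 0.56 over the 35 high in it, as the choice of those sets leads to. Without that library the median over all members was 0.02, and edgeR gave 0 calls. The number of members at an unadjusted edgeR p under 0.05 rested on single libraries. It was 6 without Tcrb-/- + Treg replicate 2, 6 without Tcrb-/- replicate 2 and 32 without Tcrb-/- + Treg replicate 3.

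**Figure D5:**
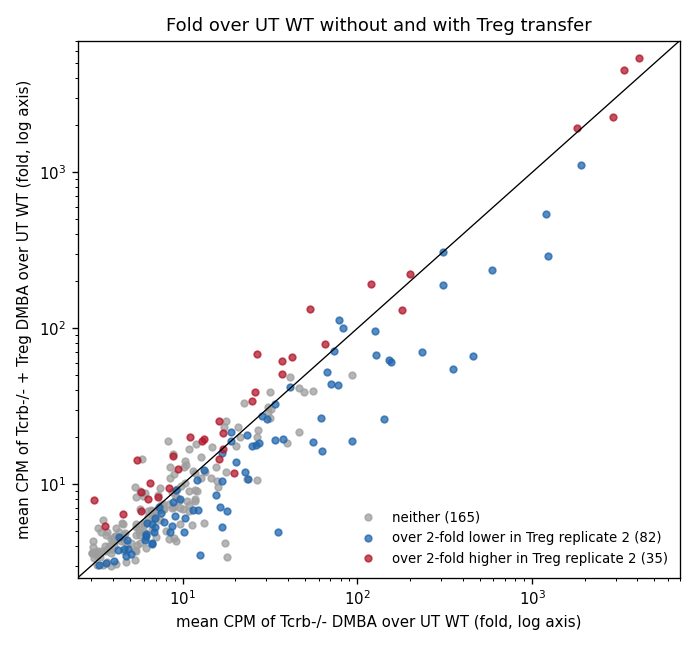
Fold over the UT WT mean in Tcrb-/- DMBA (x axis) and in Tcrb-/- + Treg DMBA (y axis) for each member, both on log axes, with a line of equal fold. Members low in Tcrb-/- + Treg replicate 2 (82, blue) lie mostly below the line, those high in it (35, red) mostly on or above it, and the other 165 (grey) on both sides.

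The member nearest to a call was MGP_FVBNJ_T0044438.1, of 2698 nt. It had 0.138, 0.158 and 0.272 CPM in UT WT, 7.59, 6.70 and 9.87 CPM in WT DMBA, 4.0, 9.05 and 6.85 CPM in Tcrb-/- DMBA, and 1.38, 0.60 and 0.829 CPM in Tcrb-/- + Treg DMBA. With Tregs all 3 libraries were below every other DMBA library, and above untreated skin as the rule requires. The log2 fold change with Tregs was -2.71 ± 0.47 (SE), with an adjusted p of 0.0613 by edgeR, which is not a call, while DESeq2 called it at a log2 fold change of -2.76. Its level is low, at 15 to 32 reads in the Tcrb-/- + Treg libraries.

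MGP_FVBNJ_T0094948.1, of 2831 nt and with whole-number estimates, also had its lowest DMBA levels with Tregs. It had 0.0922, 0.631 and 0.227 CPM in UT WT, 2.70, 3.41 and 3.17 CPM in WT DMBA, 5.5, 5.26 and 5.71 CPM in Tcrb-/- DMBA, and 0.950, 1.88 and 1.12 CPM in Tcrb-/- + Treg DMBA. The Tcrb-/- DMBA libraries were close together and above all others. The log2 fold change with Tregs was -1.98 ± 0.61 (SE), with an adjusted p of 0.386 by edgeR and a DESeq2 log2 fold change of -2.01 that was called. The third member that DESeq2 called, of 1446 nt, had 3.43, 1.65 and 2.06 CPM in Tcrb-/- DMBA and 0.388, 0.440 and 0.634 CPM in Tcrb-/- + Treg DMBA, and an edgeR log2 fold change of -2.21 ± 0.70 (SE). It is given here because it completes the 3, after its values were seen. For comparison, the 2 transcripts with the widest separation had log2 fold changes with Tregs of -0.66 ± 0.84 and 0.11 ± 0.53 (SE).

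Loss of αβ T cells under DMBA was compared next. The rule removed transcripts in which every Tcrb-/- library was above every WT library, so it holds down the number of members that can be higher in Tcrb-/- skin. In Tcrb-/- DMBA against WT DMBA skin edgeR called 0 members, where 0.00367% of all tested were called. At an unadjusted edgeR p under 0.05 there were 30 members (10.6% against 6.70%), 27 higher and 3 lower. There were 19 without Tcrb-/- replicate 1 and 39 without WT DMBA replicate 2. DESeq2 called 6, of which 5 were higher and 1 lower, and 0.719% of all tested. The median log2 fold change was 0.36 for the members and 0.00 for all tested, and 212 of the 282 had a positive value. Libraries did not overlap in 44 members higher in Tcrb-/- DMBA (15.6% against 5.76%) and in 18 lower (6.38% against 14.0%). The rule also holds down the lower number, since every Tcrb-/- library of a member had to lie above UT WT. These shares, the median and the number of positive values are therefore partly set by the choice of members.

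In Tcrb-/- + Treg DMBA against WT DMBA skin, which shares libraries with both contrasts above, edgeR called 0 members and 0.396% of all tested. There were 32 members at an unadjusted edgeR p under 0.05 (11.3% against 14.0%), 23 higher and 9 lower. That number was 16 without Tcrb-/- + Treg replicate 1 and 19 without WT DMBA replicate 1 or 3. It was 39 without Tcrb-/- + Treg replicate 3 and 38 without WT DMBA replicate 2. DESeq2 called 10, with 6 higher and 4 lower, and 3.67% of all tested. The median log2 fold change was 0.36 against 0.00 for all tested. Libraries did not overlap in 18 members higher in Tcrb-/- + Treg DMBA (6.38% against 8.61%) and in 21 lower (7.45% against 21.4%). The rule holds down both numbers here in the same way, so these shares are partly set by the choice of members.

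The largest differences between WT and Tcrb-/- skin went both ways. A member of 2613 nt had 3.27, 3.94 and 2.27 CPM in UT WT, 545, 234 and 274 CPM in WT DMBA, 10.4, 38.2 and 107 CPM in Tcrb-/- DMBA, and 35.9, 17.4 and 14.6 CPM in Tcrb-/- + Treg DMBA. All Tcrb-/- libraries were below all WT DMBA libraries, and above untreated skin as the rule requires. Its log2 fold change against WT DMBA was -2.66 ± 0.69 (SE, adjusted p of 0.410 by edgeR) without Tregs and -3.74 ± 0.73 (SE, adjusted p of 0.0240 by edgeR) with them, neither past the threshold of 0.01, and DESeq2 called both.

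MGP_FVBNJ_T0044438.1 had a log2 fold change of -2.90 ± 0.48 (SE) in Tcrb-/- + Treg DMBA against WT DMBA, with an adjusted p of 0.0129 by edgeR, the lowest among the members in any of the 3 contrasts. In the other direction stood the run of 5 short members, with log2 fold changes over WT DMBA of 3.15 to 5.41 in Tcrb-/- DMBA and 2.70 to 5.85 in Tcrb-/- + Treg DMBA and standard errors of 1.44 to 1.64. DESeq2 called 4 of these 5 in Tcrb-/- + Treg DMBA and 1 in Tcrb-/- DMBA, and edgeR none.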

How the data were processed

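Whole back skin RNA of 12 libraries, 3 per group, was analysed. The authors quantified reads with Salmon 1.5.2 against FVB/NJ transcripts and deposited an estimated count of reads and a TPM value for each transcript of each library. Per the labels, FastQC 0.12.1 and MultiQC 1.11 were also used, and libraries were prepared with TruSeq v2. The deposited estimated counts are not normalized. They were divided by the library sum for CPM. The members, lists and sets were chosen with earlier results of these data known. Counts were rounded, transcripts with under 10 reads in all were left out, and 54539 were tested in edgeR 4.0.16 (TMM, quasi-likelihood F test, 1 fit of 12 libraries, Benjamini-Hochberg adjustment over all tested) in R 4.3.3. Standard errors are the log2 fold change over the square root of F. DESeq2 1.42.0 was the alternative tool. Tests were planned for genes, and transcripts were used because no table pairs them with genes. Of the members, the 2 with the widest separation and the 2 with the smallest p in the Treg contrast, none having been called, were named by identifier. Log2 levels had 0.1 CPM added. An estimate was whole within 0.01. Counts of replicates differed by a chi-square of 22.0 to 108 per transcript, so none were merged. The tests and the rule were tested on simulated data. Depth was 17312566 to 31701620 reads. Alternatives were other size factors, filters, folds and tools, TPM, whole-number transcripts, the replicate number as a block and leaving out each library. Sequences and coordinates of the transcripts were not used here.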

Additional observations from a re-analysis of the deposited data

How the results depend on the processing

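The rule found 516 transcripts with group means 2 times UT WT and 27 among whole-number transcripts. Leaving out 1 library gave 258 to 441 members. The 441 came without UT WT replicate 3 and held 251 of the 282. Without UT WT replicate 2 there were 401, which held 246 of the 282. Without UT WT replicate 1 there were 301, which held only 217 of the 282. TMM library sizes gave 314 members (273 shared) and TPM gave 241 (223 shared).

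Members called by DESeq2 numbered 3 in Tcrb-/- + Treg DMBA against Tcrb-/- DMBA, 6 in Tcrb-/- DMBA against WT DMBA and 10 in Tcrb-/- + Treg DMBA against WT DMBA. In the last contrast edgeR called 3 at an adjusted p under 0.05 with no fold limit, 1 with filterByExpr and 1 among whole-number transcripts. Under the other alternatives, each left-out library included, edgeR called 0 members in every contrast. The causes of these shifts were not tested. The deviations of same-numbered libraries had r of -0.06 to 0.13, and those of libraries with unlike numbers -0.13 to 0.13. These values show no sign of pairs by number, but they cannot decide whether the numbers mark pairs. With the replicate number as a block edgeR called 0 members in each contrast, and the median log2 fold change with Tregs was -0.02. That median ranged from -0.21 to 0.02 over left-out libraries. The log2 fold change with Tregs ranged from -3.17 to -2.45 for MGP_FVBNJ_T0044438.1 and from -2.31 to -1.84 for MGP_FVBNJ_T0094948.1. Depth limits members with few reads in UT WT, and the estimates do not show which transcripts shared reads.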
